A study of Mus musculus with 4 samples.

Results

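The genes described here are 49 mitosis and cytokinesis genes, taken by symbol from a table of 55573 mouse genes. They cover mitotic cyclins and kinases, the spindle checkpoint, kinetochores, kinesins, condensin and the machinery of cell separation. All 49 were found. Ribosome profiling (Ribo-seq), which sequences the stretches of mRNA covered by ribosomes, was performed on primary mouse myoblasts, the dividing progeny of muscle stem cells. There were 2 libraries from wild-type (WT) cells and 2 labelled eIF5A knockout (KO), eIF5A being a translation factor that helps ribosomes through difficult peptide bonds such as runs of proline. The donors were 3 weeks old, and cells were taken on day 2 of culture in a proliferation medium with FGF. Knockout mice were Pax7CreERT2/+;eIF5A f/f mice given tamoxifen, so that deletion takes place in Pax7-expressing muscle stem cells and not in other cells of the muscle. WT mice were described as littermates, and the study gives its WT genotype as Pax7CreERT2/+ in one place and as Pax7+/+;eIF5A f/f in another. Whether each library came from its own animal or from pooled animals is not given in the sources used here, so that p-values measure the spread between these libraries, which may be technical.

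At the entry to mitosis, cyclin-bound Cdk1 triggers chromosome condensation by condensin and assembly of a spindle by kinesins and Aurora kinases. The spindle checkpoint holds back the anaphase-promoting complex (APC/C), a ubiquitin ligase, until kinetochores are attached, after which cyclin B is destroyed, the chromatids part and the contractile ring divides the cell. Transcripts of these genes accumulate late in the cell cycle, and the cell cycle genes homology region (CHR) in their promoters, often with CCAAT boxes nearby, is a known element of that control. In proliferating myoblasts the genes mark dividing cells, and they fall silent when myoblasts leave the cell cycle to fuse.

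The promoters of the genes often held the same short motifs. RefSeq promoter windows of 300 bases, from 250 before to 50 after the transcription start (GRCm38.p6), were available for 42 of the 49 genes, in 45 windows (not for Aurkb, Cdca2, Incenp, Tpx2, Kif20a, Smc4 and Ccna2). The CHR letters TTTGAA were searched on both strands, as were the variant TTCGAA and the letters CCAAT. The first of these was present in 36 of 45 windows (80.0%), against 17.9% of all 32851 RefSeq windows and 11.5% of the windows of protein-coding genes tested here. TTCGAA was present in 6.67% of the windows, against 1.56% of all. CCAAT was found in 35 windows (77.8%, against 37.4% of all), and 25 windows (55.6%, against 11.7%) held at least 2. CCAAT stood together with either CHR form in 32 windows (71.1%, against 7.52%). These are letter matches in a window and not tests of binding. Shown here are the windows from 200 bases before to 30 after the start of the 4 genes that had an entry and the lowest p-values, all on the + strand, with TTTGAA and CCAAT in capitals on either strand (TTCAAA and ATTGG where the reverse strand holds them). They are Ube2c at chr2:164769729-164769958, Smc2 at chr4:52439021-52439250, Cks2 at chr13:51645032-51645261 and Cenpa at chr5:30666686-30666915.
Ube2c: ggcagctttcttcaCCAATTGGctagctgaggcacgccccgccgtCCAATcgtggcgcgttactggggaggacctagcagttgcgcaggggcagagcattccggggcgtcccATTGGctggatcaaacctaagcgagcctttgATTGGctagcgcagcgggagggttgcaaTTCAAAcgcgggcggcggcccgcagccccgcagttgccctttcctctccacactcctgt
Smc2: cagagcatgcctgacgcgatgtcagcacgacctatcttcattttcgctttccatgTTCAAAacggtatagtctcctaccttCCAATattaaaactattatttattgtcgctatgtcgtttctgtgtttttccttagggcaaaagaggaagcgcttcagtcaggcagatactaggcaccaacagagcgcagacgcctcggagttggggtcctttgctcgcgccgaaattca
Cks2: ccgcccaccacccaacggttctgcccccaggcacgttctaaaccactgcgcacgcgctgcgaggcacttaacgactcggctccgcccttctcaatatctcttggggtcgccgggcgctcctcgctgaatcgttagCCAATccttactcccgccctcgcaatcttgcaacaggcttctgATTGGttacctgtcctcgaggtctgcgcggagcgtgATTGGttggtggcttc
Cenpa: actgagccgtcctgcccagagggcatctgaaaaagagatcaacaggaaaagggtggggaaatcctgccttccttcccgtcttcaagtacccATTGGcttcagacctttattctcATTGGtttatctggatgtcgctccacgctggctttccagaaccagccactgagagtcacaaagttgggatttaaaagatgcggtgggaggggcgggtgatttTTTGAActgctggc
Ube2c carried 1 TTTGAA match and 5 CCAAT matches, Smc2 carried 1 of each, and Cenpa carried 1 and 2. Cks2 carried 3 CCAAT matches and no TTTGAA match in this window. In the footprint values, Ube2c and Smc2 had higher values in the KO-labelled libraries, whereas Cks2 and Cenpa had lower ones.

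The libraries held 642429 to 704006 gene-assigned reads, of which the protein-coding reads numbered 269143 and 217651 in WT against 460099 and 385091 in the KO-labelled libraries (replicates 1 and 2, the order used for every list of values). The protein-coding share was thus 41.5% and 33.9% against 65.4% and 59.2%. The mitosis genes were thinly covered, with 18 to 295 reads per tested gene over the 4 libraries (median 46.5, against 63.0 for all protein-coding genes tested). Values are given in RPKM, reads per kilobase of gene length on the deposited library scale, which centres the typical gene between libraries. A level of 3 reads or fewer is not told from 0, and it was reached by both WT libraries in 5 of the tested mitosis genes and by both KO-labelled libraries in 1. Eif5a itself had 34.9 and 65.2 RPKM in WT against 60.3 and 59.4 RPKM in the KO-labelled libraries (log2 difference 0.32, limma adjusted p = 0.839). The difference was -0.12 without WT replicate 1 and 0.76 without WT replicate 2, so that its sign rested on the first WT library. The position of the deleted exons is not given in the sources used here, and whole-gene reads outside them check nothing.

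The footprint levels of most mitosis genes were higher in the KO-labelled libraries than in WT, and none passed the adjusted threshold. Of the 49 genes, 48 passed the filter of a mean RPKM of at least 1, and 43 of these (89.6%) had a log2 difference above 0, against 50.0% of the 11363 genes tested. The median log2 difference of log2(RPKM + 1) was 0.73 (interquartile range 0.34 to 1.00), against 0.00026 for all genes tested. In 29 genes (60.4%) both KO-labelled libraries lay above both WT libraries, against 20.1% of all genes. The opposite order was seen in Cks2 and Cenpa alone (4.17%), against 20.3% of all genes. Ccna2, Bub1, Mad2l1, Ttk, Knl1, Ndc80, Nuf2 and Ncapg, all higher without overlap, had a WT mean below the filter. They passed it only through the KO-labelled libraries, whereas Aspm, which did not pass, had its higher mean in WT. With no filter, 43 of the 49 genes were above 0 (against 51.2% of 18961 genes), and 29 were higher without overlap (against 15.3%). In bulk libraries, fewer cells of a type and less RNA per cell cannot be told apart, and without mRNA levels, not analysed here, neither can mRNA abundance and translation.

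**Figure D1:**
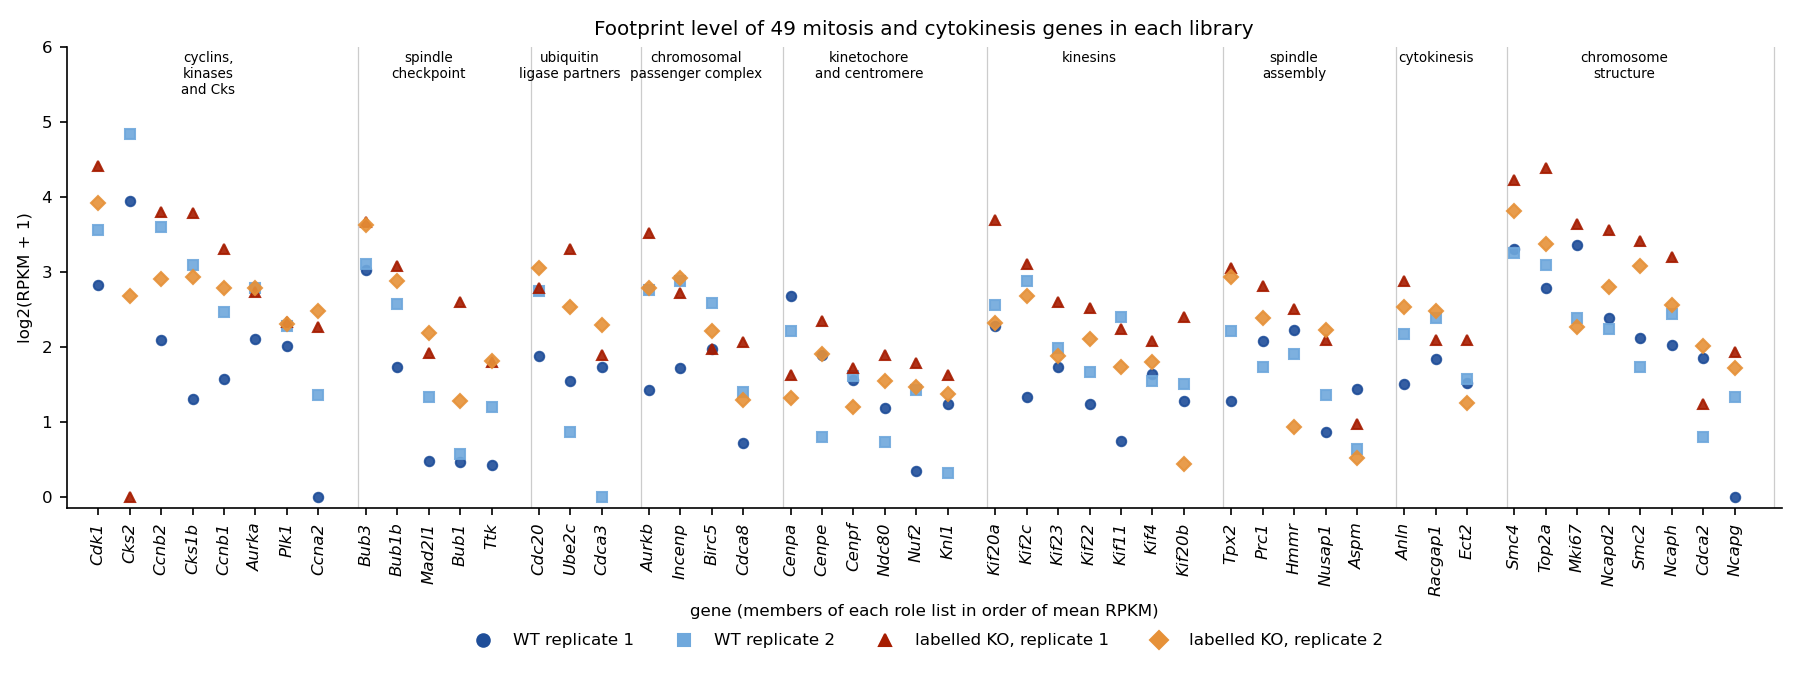
Footprint level, as log2(RPKM + 1), of the 49 genes in each of the 4 libraries, by role list and in order of mean RPKM; each point is 1 library. The first library labelled KO (red triangles) is the highest of the 4 in 34 of the 48 tested genes and the first WT library (dark blue circles) the lowest in 29, while Cks2 and Cenpa have both WT libraries on top.

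By limma with Benjamini-Hochberg adjustment over all genes, 0 of the 48 genes had an adjusted p under 0.05, against 12 (0.106%) of the 11363 genes tested, while 5 had an unadjusted p under 0.05. The same 5 also passed a criterion of at least 2-fold with an unadjusted p under 0.05. Of these, 4 were higher in the KO-labelled libraries (8.33%, against 2.67% of all genes), namely Ube2c, Smc2, Tpx2 and Ccna2. Cks2 was lower (2.08%, against 4.29%). With 1 library left out, 3 genes were higher and 0 lower past the criterion without WT replicate 1, against 3.39% and 5.25% of all genes. Without WT replicate 2 there were 7 and 0 (against 6.42% in each direction), without KO replicate 1 there were 0 and 0 (against 199 and 223 of the 11363 genes), and without KO replicate 2 there were 1 and 1 (against 2.31% and 2.81%). Of the 5 genes, Smc2 passed only without WT replicate 1, Ccna2 and Tpx2 only without WT replicate 2 and Cks2 only without KO replicate 2, whereas Ube2c passed in none of these 4 fits. Read-based weights (voom on the recovered reads) put 12 genes past the same criterion, 10 higher and 2 lower (against 3.63% and 7.15% of all genes). With voom, 0 of the 48 genes had an adjusted p under 0.05, against 79 of the 11363 genes. An exact permutation test of 2 libraries against 2 cannot give a p below 0.333. Each fit with 1 library left out had a group of 1 library. Its spread within groups came from the other group alone, so that its p-values are weak evidence for any gene. Some genes that share a position with another gene on the opposite strand are uncertain, since the use of strand is not given in the sources used here. Those with more than 20 reads in the other gene are Ccna2 (Exosc9), Cdc20 (Elovl1), Cdca8 (9930104L06Rik), Kif20a (Cdc23), Kif4 (Pdzd11), Prc1 (6330403N20Rik) and Ncapg (Lcorl). Smc4 holds Mir15b and Mir16-2 on its own strand, with 31 and 13 reads beside its 188.

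**Figure D2:**
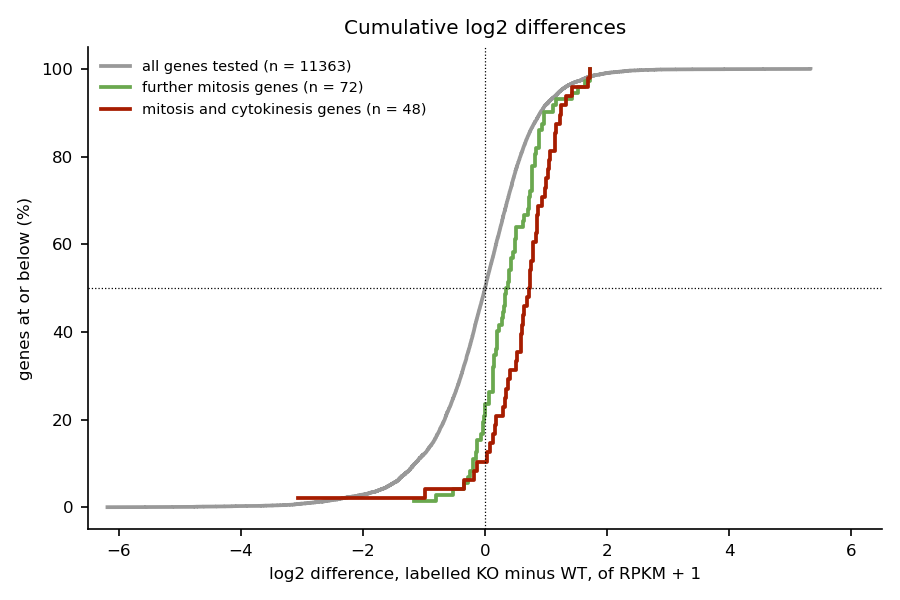
Cumulative share of genes, in percent, by log2 difference (labelled KO minus WT, of RPKM + 1) for the 48 tested mitosis and cytokinesis genes, 72 further mitosis genes and all 11363 genes tested. The curve of the mitosis genes crosses 50% at 0.73, that of the further genes at 0.37 and that of all genes at 0.00026, and the long step at the lower left is Cks2.

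Summed over the 49 genes, the libraries held 451 and 424 reads in WT against 1508 and 898 reads in the KO-labelled libraries. Per 10000 protein-coding reads this was 16.8 (95% Wilson interval 15.3 to 18.4) and 19.5 (17.7 to 21.4) in WT. The corresponding values were 32.8 (31.2 to 34.5) and 23.3 (21.8 to 24.9) in the KO-labelled libraries. The intervals cover counting error only, since reads carry no molecular identifiers. The mean over WT was 18.1 ± 1.93 (SD, n = 2), that over the KO-labelled libraries was 28.0 ± 6.69 (SD, n = 2), and their ratio was 1.55, so that the latter stood above WT but differed more from each other than the second of them differed from WT. Chromosome structure genes made up the largest share in every library, with 5.94 and 4.87 against 11.2 and 6.78 reads per 10000. Spindle checkpoint genes had 1.49 and 2.07 against 3.37 and 3.25, with both KO-labelled libraries close to each other and above WT.

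**Figure D3:**
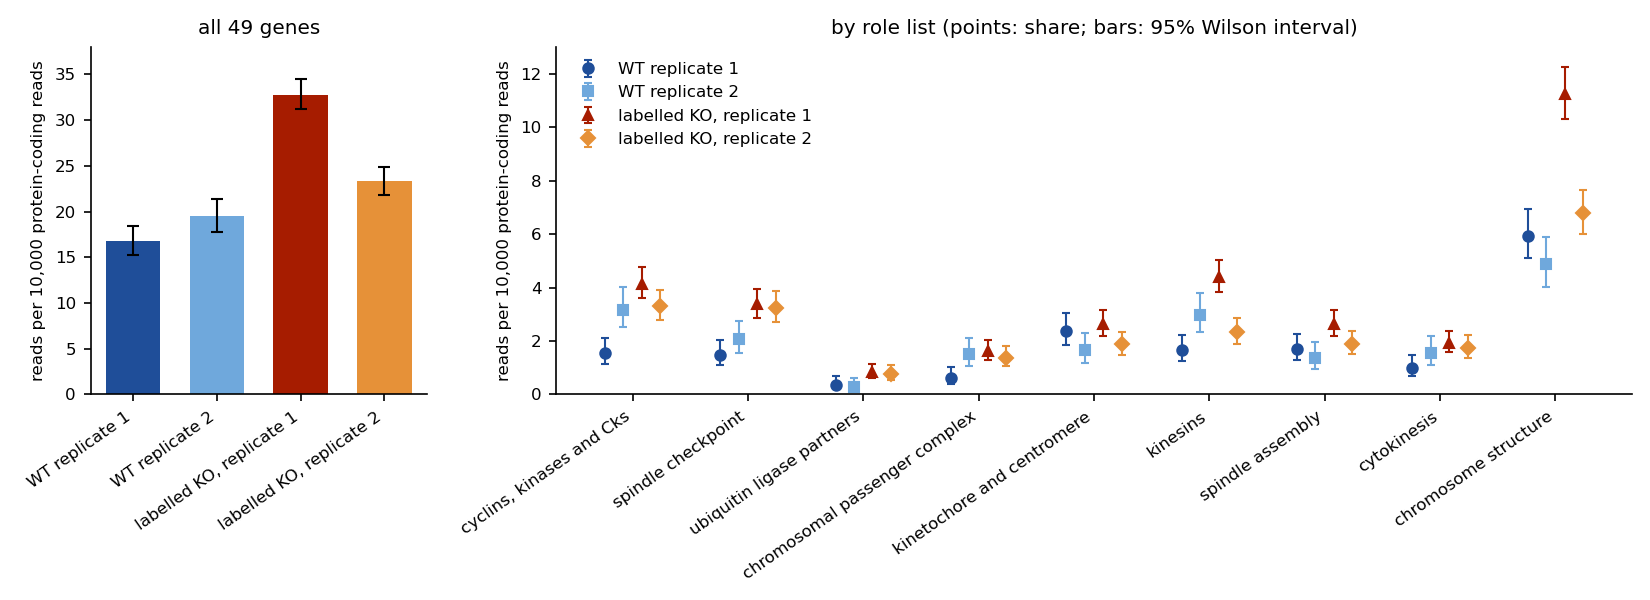
Reads of the mitosis and cytokinesis genes per 10000 protein-coding reads in each library, for all 49 genes (bars, left) and for each role list (points, right), with 95% Wilson intervals. For all genes the KO-labelled libraries, at 32.8 and 23.3, lie above the WT libraries, at 16.8 and 19.5, whereas for the chromosomal passenger complex, kinetochore and centromere genes and kinesins the libraries of the groups overlap.

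Cyclins, kinases and Cks subunits were higher in 7 of 8 genes, with a median log2 difference of 0.74, and Cks2 stood apart. That median was 0.15 without WT replicate 1 and 1.31 without WT replicate 2. Cdk1, the kinase that drives entry into mitosis with the highest RPKM of the 49 genes averaged over the 4 libraries, had 6.05 and 10.8 RPKM in WT against 20.3 and 14.1 RPKM in the KO-labelled libraries. Ccnb1, the B-type cyclin that activates it, had 1.97 and 4.53 RPKM against 8.89 and 5.87 RPKM. The groups did not overlap for either gene, and the log2 differences of 0.98 ± 0.45 (SE) for Cdk1 and 1.03 ± 0.46 for Ccnb1 did not pass the test (limma adjusted p = 0.676 for both). They were 0.61 and 0.58 without WT replicate 1. Ccna2, cyclin A of S phase and early mitosis (chr3:36564865-36572150, - strand), had 0 and 3 reads in WT against 14 and 15 reads. In RPKM these were 0 and 1.56 against 3.78 and 4.55, with both WT libraries at or under the floor. Its level was at least 3.00-fold higher in the KO-labelled libraries, computed against 3 reads per WT library, and its fitted log2 difference was 1.69 (limma adjusted p = 0.672), or 1.01 without WT replicate 1. Ccnb2, Aurka and Plk1, the other cyclin and kinases of the list, were at log2 differences of 0.51, 0.32 and 0.17. Without WT replicate 1 these were -0.24, -0.022 and 0.034, so that Ccnb2 and Aurka changed sign, and without WT replicate 2 they were 1.26, 0.66 and 0.31.

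The small docking subunits Cks1b and Cks2, which bind cyclin-dependent kinases and help them to multiply phosphorylated substrates, lay on opposite sides. Cks2 (chr13:51645232-51650660, + strand) had 6 and 9 reads in WT against 0 and 3 reads in the KO-labelled libraries, or 14.4 and 27.6 RPKM against 0 and 5.37 RPKM. The groups did not overlap and the level was at least 4.14-fold lower in the KO-labelled libraries, against a floor of 3 reads per library (fitted log2 difference -3.06, limma adjusted p = 0.650). Without KO replicate 1 the fitted difference was -1.72, and without WT replicate 2 the bound was 2.83-fold. Cks1b had 1.47 and 7.54 RPKM in WT against 12.7 and 6.60 RPKM in the KO-labelled libraries, from 1, 4, 13 and 6 reads, and its groups overlapped (log2 difference 1.15 ± 0.68 SE, limma adjusted p = 0.697). The difference was 0.26 without WT replicate 1 and 2.05 without WT replicate 2. Both are short genes with few reads, the 18 reads of Cks2 being the fewest among the tested genes, and the difference between the 2 genes was not tested. The treatment of reads with more than 1 match is not given in the sources used here, which leaves genes with close copies such as these uncertain.

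The spindle checkpoint genes had higher values in the KO-labelled libraries in 5 of 5, all without overlap of the groups (against 20.1% of all genes tested), at a median log2 difference of 0.99. Bub3, a carrier of checkpoint kinases at the kinetochore, had 7.10 and 7.57 RPKM in WT against 11.6 and 11.3 RPKM in the KO-labelled libraries. Bub1b, a subunit of the mitotic checkpoint complex, had 2.33 and 4.97 RPKM against 7.48 and 6.37 RPKM, and Mad2l1, which blocks Cdc20, had 0.395 and 1.52 RPKM against 2.76 and 3.54 RPKM. The pair of libraries labelled KO agreed closely for Bub3, for which the log2 difference was 0.58 ± 0.36 (SE). The differences were 0.83 for Bub1b and 1.14 for Mad2l1, with limma adjusted p-values of 0.676 to 0.697 over the 3 genes, and they were 0.41 and 0.71 without WT replicate 1. Bub1 and Ttk, the kinases at the head of the checkpoint, were at or under 3 reads in both WT libraries. Bub1 had 20 and 5 reads in the KO-labelled libraries and was at least 2.49-fold higher there, a bound that was 1.09-fold without KO replicate 1 and 3.89-fold without KO replicate 2. Ttk had 11 and 10 reads and was at least 2.16-fold higher. The median of the checkpoint list was 0.61 without WT replicate 1.

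The 3 partners of the ubiquitin ligases, Cdc20, Ube2c and Cdca3, all lay above WT without overlap (against 20.1% of all genes), at a median log2 difference of 1.22, which ran from 1.02 without KO replicate 2 to 2.06 without WT replicate 1. Ube2c, the ubiquitin-conjugating enzyme that starts chains for the APC/C (chr2:164769898-164778822, + strand), had 3 and 1 reads in WT against 21 and 10 reads in the KO-labelled libraries. In RPKM these were 1.91 and 0.816 against 8.91 and 4.76, at least 3.13-fold higher against the floor of 3 reads per WT library (fitted log2 difference 1.72, limma adjusted p = 0.635). This bound was 2.18-fold without KO replicate 1. Ube2c had the lowest p of the 48 genes. Cdc20, the APC/C activator that the checkpoint restrains, had 2.66 and 5.68 RPKM against 5.90 and 7.29 RPKM, so that the second WT library nearly reached the first labelled KO (log2 difference 0.61 ± 0.44 SE, limma adjusted p = 0.706, or 0.18 without WT replicate 1). Cdca3 had 4 and 0 reads in WT against 7 and 9 reads, at a log2 difference of 1.22, which was 2.09 without WT replicate 1 and 0.36 without WT replicate 2.

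Among the 4 subunits of the chromosomal passenger complex, which corrects faulty kinetochore attachments, 3 were higher and 1, Aurkb, was without overlap (against 20.1% of all genes). The median log2 difference was 0.57, with 0.11 without WT replicate 1 and 1.03 without WT replicate 2. Aurkb, its kinase, had 1.69 and 5.76 RPKM in WT against 10.5 and 5.88 RPKM in the KO-labelled libraries (log2 difference 1.06 ± 0.57 SE, limma adjusted p = 0.686), with 0.39 without WT replicate 1 and 1.72 without WT replicate 2. Incenp, the scaffold of the complex, had 2.30 and 6.37 RPKM against 5.60 and 6.58 RPKM. The groups overlapped for Incenp, and its log2 difference of 0.52 became -0.060 without WT replicate 1. For Birc5, survivin, the log2 difference was -0.19, and for Cdca8, borealin, it was 0.62, both with overlapping groups, and these were 0.12 without WT replicate 2 for Birc5 and 0.23 without KO replicate 1 for Cdca8.

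Kinetochore and centromere genes were divided, with 4 of 6 higher and a median log2 difference of 0.73, which was 0.25 without WT replicate 2. Cenpa, the histone H3 variant that marks the centromere and is deposited after mitosis, was the only gene besides Cks2 with both KO-labelled libraries below WT. It had 5.38 and 3.62 RPKM in WT against 2.07 and 1.48 RPKM in the KO-labelled libraries, from 19, 10, 11 and 7 reads (log2 difference -0.98 ± 0.42 SE, limma adjusted p = 0.675). Cenpe, a kinetochore motor that carries chromosomes to the spindle equator, lay the other way, with 2.69 and 0.739 RPKM against 4.09 and 2.73 RPKM (log2 difference 0.78 ± 0.54 SE, or 0.24 without WT replicate 2). Its first WT library nearly met the second labelled KO. The outer kinetochore genes Knl1, Ndc80 and Nuf2, which hold microtubules, were all without overlap (against 20.1% of all genes) at log2 differences of 0.72, 0.76 and 0.74. Knl1 was at 0.26 without WT replicate 2, and Nuf2 at 0.20 without WT replicate 1. The WT means of Knl1, Ndc80 and Nuf2, at 0.80, 0.97 and 0.97 RPKM, lay below the filter. Cenpf was at -0.13 with overlapping groups, and at 0.13 without KO replicate 2.

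All 7 kinesins had a log2 difference above 0, and 2 of them, Kif22 and Kif4, were without overlap, against 20.1% of all genes. The median was 0.41, and with 1 library left out it was 0.25 without WT replicate 1, 0.74 without WT replicate 2, 0.17 without KO replicate 1 and 1.00 without KO replicate 2. Kif22, which pushes chromosome arms towards the equator, had 1.35 and 2.16 RPKM in WT against 4.72 and 3.28 RPKM in the KO-labelled libraries (log2 difference 0.86 ± 0.43 SE, limma adjusted p = 0.676). Kif20a, a motor of the cleavage site, had 3.82 and 4.89 RPKM against 11.9 and 4.00 RPKM, the high value coming from the first library labelled KO alone. Kif2c, a microtubule depolymerase, had 1.52 and 6.32 RPKM against 7.58 and 5.39 RPKM. Neither Kif20a nor Kif2c was separated between groups, and without KO replicate 1 the log2 difference of Kif20a was -0.094. For Kif2c it was 0.79, and 0.016 without WT replicate 1. Kif11, Kif23, Kif4 and Kif20b were at 0.41, 0.38, 0.34 and 0.03. Of these, Kif11 was at -0.42 without WT replicate 1 and 1.24 without WT replicate 2, Kif23 at 0.018 without KO replicate 1, and Kif20b at -0.95 without KO replicate 1 and 1.01 without KO replicate 2.

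Spindle assembly genes were higher in 3 of the 4 tested, with a median log2 difference of 0.87, and cytokinesis genes in 3 of 3, with a median of 0.17. For cytokinesis the median was 0.10 without WT replicate 1, 0.44 without WT replicate 2, 0.36 without KO replicate 1 and 0.56 without KO replicate 2. Tpx2, which nucleates spindle microtubules and activates Aurora A (chr2:152847964-152895321, + strand), had 1.42 and 3.63 RPKM in WT against 7.31 and 6.62 RPKM in the KO-labelled libraries. Its log2 difference was 1.25 ± 0.45 SE (limma adjusted p = 0.672), or 0.78 without WT replicate 1, and the groups did not overlap. Prc1, the bundler of midzone microtubules, had 3.23 and 2.32 RPKM against 6.03 and 4.21 RPKM (log2 difference 0.69). Nusap1, a microtubule-binding protein with both WT libraries at or under 3 reads, was at least 2.48-fold higher in the KO-labelled libraries, and Hmmr was at a log2 difference of -0.34 with overlapping groups, or 0.44 without KO replicate 2. Aspm, a spindle pole protein, was the gene below the filter, with 12 and 3 reads in WT against 10 and 4 reads in the KO-labelled libraries. Of the cytokinesis genes, Anln, a scaffold of the contractile ring, was without overlap, at 1.83 and 3.51 RPKM against 6.33 and 4.78 RPKM (log2 difference 0.86 ± 0.42 SE, or 0.53 without WT replicate 1). Racgap1, which guides the site of the ring, was close to even, at 2.58 and 4.20 RPKM against 3.27 and 4.55 RPKM (log2 difference 0.17 ± 0.41 SE, 95% interval -0.83 to 1.18), as was Ect2, its exchange factor partner, at 0.13 (-0.29 without KO replicate 1). Racgap1 was at -0.095 without WT replicate 1.

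Chromosome structure genes were higher in 8 of 8, with 6 of them without overlap (against 20.1% of all genes) and a median log2 difference of 0.80 (0.50 without KO replicate 1). The core subunits of condensin, Smc2 and Smc4, which compact mitotic chromosomes as a pair, had 3.33 and 2.32 against 9.66 and 7.46 RPKM for Smc2 (chr4:52439243-52488260, + strand) and 8.91 and 8.56 against 17.8 and 13.1 RPKM for Smc4. For both genes the WT libraries were close to each other and the groups well apart. The log2 difference was 1.32 ± 0.38 SE for Smc2 (limma adjusted p = 0.646) and 0.74 ± 0.38 SE for Smc4 (adjusted p = 0.680). The condensin I subunits Ncapd2, Ncapg and Ncaph were without overlap as well, at 0.86, 1.16 and 0.64, while the groups of Cdca2 overlapped at 0.30 (-0.23 without WT replicate 2). Ncapg was at 0.50 without WT replicate 1, and Ncapd2 and Ncaph were at 0.48 and 0.32 without KO replicate 1. Top2a, the topoisomerase that untangles chromatids and the gene with the most reads of the 49, had 5.89 and 7.54 RPKM in WT against 19.9 and 9.34 RPKM in the KO-labelled libraries (log2 difference 0.94 ± 0.47 SE, limma adjusted p = 0.679, or 0.43 without KO replicate 1). Mki67, the coat protein of mitotic chromosomes and a common marker of proliferation, showed no separation of the groups. It had 9.23 and 4.22 RPKM against 11.4 and 3.81 RPKM, the first library of each group being the high one, and a log2 difference of 0.08 ± 0.60 SE whose 95% interval ran from -1.40 to 1.56. It was -0.41 without WT replicate 2 and 0.57 without WT replicate 1.

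The first library of each group was the most extreme for many of the mitosis genes. WT replicate 1 was the lowest of the 4 libraries in 29 of 48 genes (60.4%, against 28.0% of all genes tested), and KO replicate 1 the highest in 34 (70.8%, against 24.3%). The median log2 difference was 0.47 without WT replicate 1 and 0.57 without KO replicate 1. With the second libraries alone, an alternative added after seeing the data and without a test, it was 0.29, with 32 of 48 genes higher in the library labelled KO, against 48.97% of all genes. The sign of the median was the same under each of these, and its size was smaller. With any 1 library left out, 35 of the 48 genes kept the sign of their log2 difference throughout, and 13 changed it at least once (Ccnb2, Aurka, Incenp, Birc5, Cenpf, Kif11, Kif20a, Kif20b, Hmmr, Ect2, Racgap1, Mki67 and Cdca2). In 9 genes the difference stayed within 1.5 times its value in all 4 omissions, namely Bub3, Ube2c, Cenpa, Ndc80, Kif22, Nusap1, Prc1, Smc2 and Smc4.

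**Figure D4:**
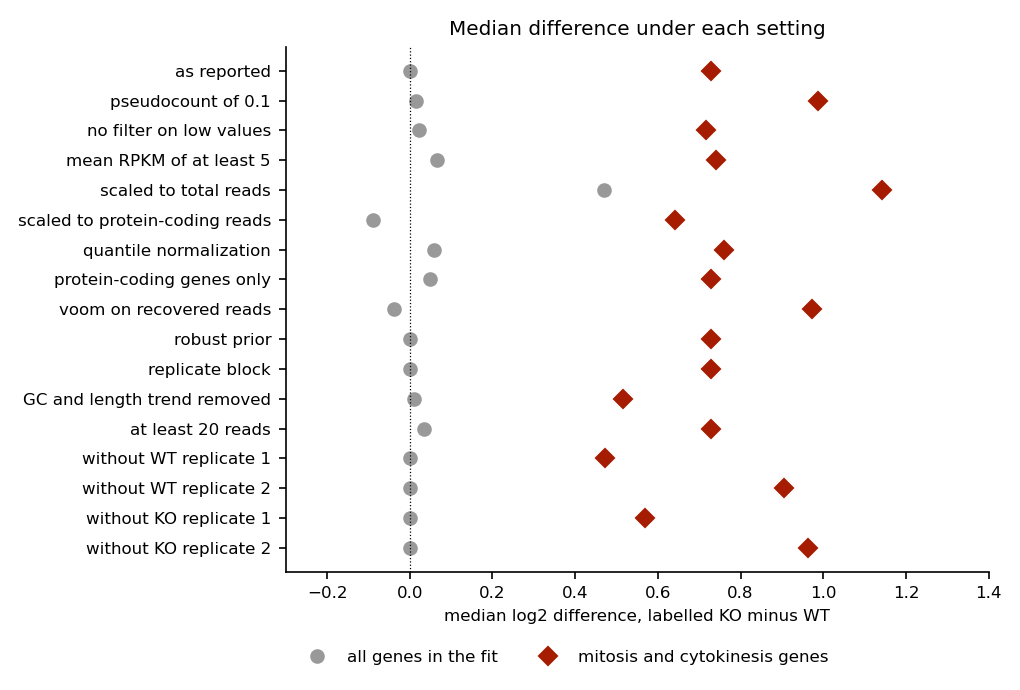
Median log2 difference (labelled KO minus WT) of the mitosis and cytokinesis genes (red diamonds) and of all genes in the fit (grey circles) under each processing setting and with each library left out. The median of the mitosis genes stays between 0.47 and 1.14, and that of all genes lies near 0 except with scaling to total reads, where it is 0.47.

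Markers of other cells and of differentiation also varied between these libraries. Muscle differentiation markers (24 genes) summed to 23.9 and 4.64 reads per 10000 protein-coding reads in WT against 3.67 and 3.04 in the KO-labelled libraries, so that WT replicate 1, where the mitosis genes were lowest, was far above the rest. Myog, the regulator of terminal differentiation, had 82 and 3 reads in WT against 1 and 2 reads in the KO-labelled libraries, while Tnnc2 was at 0 in all 4. Of the 14 tested, 11 were lower, 7 of them without overlap (against 20.3% of all genes). The 3 higher were Mef2c, without overlap (against 20.1%), Tnni2 and Myl4. The median log2 difference of the list was -1.27, and -0.63 without WT replicate 1. Fibroblast markers (14 genes) summed to 91.1 and 62.2 reads per 10000 in WT against 141 and 69.5 in the KO-labelled libraries, highest in KO replicate 1, where the mitosis genes were highest. Their median log2 difference was 0.60 with 10 of 14 higher, and it was 0.05 without KO replicate 1, 0.20 without WT replicate 2 and 1.06 without KO replicate 2. Endothelial markers (8 genes) summed to 13.9 and 12.8 reads per 10000 in WT against 16.4 and 14.7 in the KO-labelled libraries. All 7 tested were higher, 6 without overlap (against 20.1% of all genes), at a median log2 difference of 0.57, which ran from 0.34 without KO replicate 1 to 0.66 without KO replicate 2. Immune markers (10 genes) ran from 1.01 to 1.38 reads per 10000, with Itgam and C1qa at 0 throughout. Of the 4 tested, 1 was higher and 3 were lower. The higher one, Adgre1, had 1 and 3 reads in WT against 13 and 11 reads in the KO-labelled libraries. Lyz2, among the lower, had 9 and 8 reads against 5 and 6. In the second libraries alone, where the median of the mitosis genes was 0.29, the differentiation markers stood at 4.64 and 3.04 and the fibroblast markers at 62.2 and 69.5. The part of these cells in the mitosis values was not tested.

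Myoblast markers, which check the label of the cells, were detected in all 10 genes, with Pax7 at 30 and 10 reads in WT against 5 and 7 in the KO-labelled libraries. They summed to 20.7 and 15.3 reads per 10000 protein-coding reads in WT against 12.1 and 10.1 in the KO-labelled libraries. The mitosis genes thus had higher values in libraries where 9 of 10 myoblast markers had a log2 difference below 0 (median -1.05, and -0.50 without WT replicate 1). Of these, 6 were without overlap (against 20.3% of all genes), and Itga7 was even, at -0.017. Vcam1 was higher without overlap (against 20.1%). Fibroblast markers, Dcn and Pdgfra among them, exceeded the myoblast markers in summed reads in every library.

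The coding sequences of the mitosis genes were poorer in G and C than most. Their median GC content was 48.0% (range 37.8% to 56.4%), against 53.2% for the 9869 protein-coding genes tested with a coding sequence, and 38 of the 48 lay below that value. Across those genes, which share the 4 libraries and are not independent replicates, the log2 difference was lower at higher GC content (Spearman's rho -0.36), whereas among the 48 mitosis genes rho was -0.05. With the trend on GC content and coding length removed, the median of the mitosis genes was 0.52, with 40 of 48 above 0 and 27 without overlap on the higher side, against 50.8% of the 9869 genes above 0 and 1970 of them without overlap on that side.

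**Figure D5:**
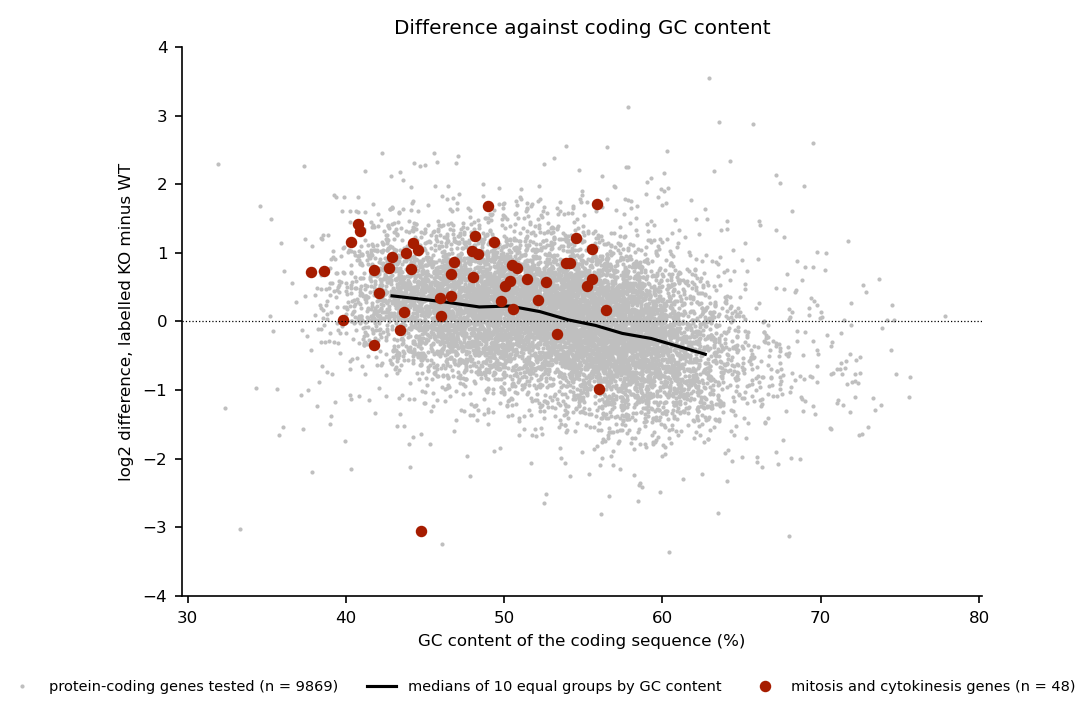
Log2 difference (labelled KO minus WT) against the GC content of the coding sequence, in percent, for 9869 protein-coding genes (grey points, with medians of 10 equal groups by GC content as a line) and 48 mitosis and cytokinesis genes (red). Most red points lie below 53.2% GC content and above the line, and Cks2 is the red point near -3.06.

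Runs of at least 3 prolines, where ribosomes depend on eIF5A, were rare in the mitosis proteins. Among the 49 longest coding sequences, 2 (4.08%) encoded such a run, against 2538 of 9849 protein-coding genes tested (25.8%). They were Smc4 and Kif20a, with the longest runs of 6 and 4 prolines. In Smc4 the run of 6, codons 64 to 69, is shown with its proline codons in capitals, as in the GENCODE vM21 transcript.
Smc4 codons 64 to 69: CCTCCACCCCCACCTCCA
Smc4 had 49 reads in WT against 139 in the KO-labelled libraries, and its log2 difference of 0.74 was close to the median of the 48 genes. Kif20a had a log2 difference of 0.59.

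Other genes of mitosis, 97 in all, also had mostly higher values in the KO-labelled libraries. Of these, 72 were tested, 56 were higher in the KO-labelled libraries, and the median log2 difference was 0.37 (0.59 without WT replicate 2). Groups did not overlap in 26 with the KO-labelled libraries above and in 3 with them below, against 20.1% and 20.3% of all genes. With 5 genes higher and 0 lower, the fold and p criterion was passed by Anapc4, Cdc16, Tacc3, Pbk and Zwilch, against 2.67% and 4.29% of all genes, and no gene passed the adjusted threshold. The 5 became 1 without KO replicate 1, 3 without KO replicate 2 and 2 after removal of the GC and length trend, all of them higher (against 1.75%, 2.31% and 2.89% of all genes), and 9 higher and 1 lower without WT replicate 2 (against 6.42% in each direction). Anapc4, a scaffold subunit of the APC/C, had 4.09 and 2.79 RPKM in WT against 12.7 and 12.6 RPKM in the KO-labelled libraries (log2 difference 1.64 ± 0.37 SE, limma adjusted p = 0.549). Cdc16, another APC/C subunit, had 7.48 and 4.79 RPKM against 12.8 and 16.8 RPKM (log2 difference 1.16 ± 0.41 SE). Both genes had their groups well apart, as did Tacc3, a stabiliser of spindle microtubules, with 2 and 3 reads in WT against 24 and 17 reads. Pbk, a mitotic kinase, had 1 and 1 reads against 18 and 4 (log2 difference 1.72, or 0.88 without KO replicate 1), and Zwilch, a kinetochore protein of the checkpoint, had 3 and 1 reads against 9 and 21 (log2 difference 1.43, or 0.88 without KO replicate 2). Dsn1, a kinetochore subunit next in order of p, had 1 and 0 reads against 10 and 5. In Tacc3, Pbk, Zwilch and Dsn1 both WT libraries were at or under 3 reads, so that their fitted differences are not exact folds. APC/C genes were higher in 10 of 14, kinetochore genes in 16 of 17, cohesin and separase genes in 11 of 13, spindle and cytokinesis genes in 12 of 13, condensin II genes in 1 of 3, and regulators of mitotic entry in 6 of 12.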

How the data were processed

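Ribo-seq was performed on WT and eIF5A-KO primary myoblasts, 2 libraries per group, grouped by the genotype and replicate number in the labels. According to the methods and labels, the authors treated cells with cycloheximide, isolated fragments protected from RNase I, discarded rRNA and tRNA reads, aligned to mm10 with TopHat2 and counted with HTSeq on Ensembl genes. The authors deposited RPKM values. Multiplied by gene length they gave whole reads for 100% of values (tolerance 0.001), and the implied denominators followed a size-factor scaling, which hides any change common to most genes. Totals were 648386, 642429, 704006 and 650210 reads. A floor of 3 reads was used.

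Differences were tested with limma 3.58.1 (R 4.3.3; lmFit, eBayes with trend) on log2(RPKM + 1) by group alone, for genes averaging 1 RPKM or more. On this scale the fold of a low gene comes out too small. Two-sided p-values received Benjamini-Hochberg adjustment (threshold 0.05). The limma and voom fits alone were tried on simulated libraries. The changes there were larger, and in genes with more reads, than in most mitosis genes here. Coding sequences came from GENCODE vM21 and promoters from RefSeq (GRCm38.p6). Members, lists and tests were chosen with earlier results of these data known. Genes were named by rule: in each role list, the 2 with the highest mean RPKM and the 1 with the lowest p; every gene with p under 0.05; Mki67, Top2a, Ccnb1, Cdk1, Cks1b and Cks2; the 6 further mitosis genes of lowest p; and Eif5a. Any other gene was chosen with its values in view. The replicate number was not a term of the main fit, and over all genes the deviations of same-numbered libraries correlated at 0.057. A shared preparation of same-numbered libraries was not tested. The alternatives were another pseudocount, other filters, scalings, voom, a robust prior, a replicate block, removal of a GC and length trend, and each library left out.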

Additional observations from a re-analysis of the deposited data

How the results depend on the processing

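The median log2 difference of the mitosis genes was above 0 under each alternative run. Among the fits of all 4 libraries, none gave a mitosis gene with an adjusted p under 0.05. Over all 11363 genes, 79 passed that threshold with voom and 21 with the robust prior. With quantile normalization or scaling to protein-coding reads, 12 did. In the other alternatives with all 4 libraries no gene of any kind passed, so that no mitosis gene could. With scaling to total reads the median was 1.14, or 0.67 above the 0.47 of all genes, and 22 genes were higher and 1 lower past the fold and p criterion (23 in all, against 5 as reported, 4 higher and 1 lower). Over all genes the criterion then gave 1575 higher and 168 lower, against 303 and 488, and 219 and 600 with scaling to protein-coding reads. The count of mitosis genes past the criterion was 12 with voom (against 10.8% of all genes, and 6.96% as reported) and 8 with at least 20 reads over the 4 libraries (added after seeing the data, against 8.91%), which leaves out Cks2. It was 2 with the filter raised to 5 RPKM (against 8.51%), which left 19 genes, 11 of them without overlap on the higher side (against 23.9%). It was 0 to 7 with 1 library left out, the 0 being without KO replicate 1, where 3.71% of all genes passed, and the 7 without WT replicate 2, where 12.8% did. For the further mitosis genes the count of 5 became 17 with scaling to total reads, all higher (against 2.67% and 13.9% of all genes). It was 2 with the filter at 5 RPKM, both higher (against 2.85%), and that filter left fewer of these genes. After removal of the GC and length trend it was also 2, both higher (against 2.89%). It was 1 to 10 with 1 library left out (1 without KO replicate 1, 10 without WT replicate 2, where 3.71% and 12.8% of all genes passed). The second libraries alone gave a median of 0.29. Of the values of the 25 named mitosis genes, 381 kept their direction and 8 changed sign. This count does not follow the fold and p criterion, which several of the genes crossed. Mki67 was at -0.022 with scaling to protein-coding reads and -0.025 after removal of the GC and length trend. With 1 library left out it ran from -0.60 without KO replicate 1 to 0.76 without KO replicate 2. Racgap1 ran from -0.095 to 0.44, Incenp had its lowest value of -0.060 without WT replicate 1 and its highest of 1.10, and Kif20a its lowest of -0.094 without KO replicate 1 and its highest of 1.28. The cause of these changes was not tested. Adding the replicate block cannot move the median of 0.73 in this balanced design. The count was 5 (against 7.24% of all genes), and 4 further mitosis genes passed, all higher (against 2.78%). Over all genes tested, the deviations of same-numbered libraries correlated at 0.057. For Mki67 and the summed fibroblast markers, the first library of each group was the higher one. At this depth, 18 to 295 reads per gene, a level of 3 reads or fewer was not told from 0, which held for both WT libraries in 5 of the tested mitosis genes.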

Other observations

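Genes of DNA replication, the stage before mitosis, were higher in the KO-labelled libraries in 25 of 27 tested of 30 listed, with a median log2 difference of 0.87. Groups did not overlap in 15 of them with the KO-labelled libraries above, against 20.1% of all genes. The fold and p criterion was passed by 5, all higher, against 2.67% of all genes, and an adjusted p under 0.05 by 0 (limma). Mcm4, a subunit of the replicative helicase, had 6.47 and 8.87 RPKM in WT against 20.3 and 17.2 RPKM in the KO-labelled libraries, without overlap. Rrm1, the large subunit of ribonucleotide reductase, had 1.81 and 6.17 RPKM against 12.4 and 10.5 RPKM. Rfc4, a subunit of the clamp loader, had 3.25 and 6.92 RPKM against 15.1 and 12.1 RPKM. Pcna, the sliding clamp, overlapped between groups, at 16.6 and 46.0 RPKM against 28.5 and 41.8 RPKM. Summed over the list, reads per 10000 protein-coding reads were 8.95 and 19.6 in WT against 22.8 and 22.1 in the KO-labelled libraries, so that WT replicate 1 was the library that stood apart. Without it the median log2 difference of the replication genes was 0.12, and that of the mitosis genes 0.47. Without WT replicate 2 the replication genes were at 1.37. Mcm4, Rrm1, Rfc4 and Pcna were chosen after their values were seen.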
